A study of Sus scrofa with 4 samples.

Results

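The transcripts of control blastocysts of the pig (Sus scrofa) were described from 4 pools, out of 8 pools hybridised on 4 two-colour oligonucleotide arrays. The control pools came from oocytes that were matured inside their layer of cumulus cells and without luteal cells. The other 4 pools, matured in coculture with luteal cells of the corpus luteum, were the second sample of each array and do not enter here. Control RNA carried the dye Cy3 on replicates 1 and 2 and Cy5 on replicates 3 and 4, and the values of those channels were taken for every probe that the image quantification had not left out. This gave 43644 to 43720 of 43794 probes per array. Per the labels, pools held 10 blastocysts and were collected on days 7 and 8. The labels do not say which pool came from which day, which breed or donors the oocytes came from, or whether the replicates came from separate culture runs. Spread and p-values below therefore cover these 4 pools, and pool, day and dye cannot be told apart.

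A blastocyst is a hollow embryo with an outer epithelium, the trophectoderm, that pumps fluid into the cavity and later forms the placenta. The inner cells separate into epiblast, the pluripotent source of the fetus, and hypoblast, also called primitive endoderm, which lines the cavity and contributes to the yolk sac. By this stage the embryo has replaced most of the RNA stored in the oocyte with its own transcripts. A pool mixes all these cells, so fewer cells of a type and less RNA per cell cannot be told apart in its values.

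The control channels held a signal that was clear of background for 26.3% of the named genes. In each control channel the detection limit was the mean plus 2 SD of 153 negative-control spots, and the level of a probe is the log2 of its background-corrected signal over that limit, so that 0 is the limit itself. A level given for a gene without its 4 values is the mean over the 4 pools. On replicates 1 to 4, 33.6%, 34.5%, 23.4% and 23.8% of the probes exceeded it. The Cy3 channels thus lay above the Cy5 channels in this share, without overlap. Median raw probe intensities ran from 631 to 840 and those of the negative-control spots from 651 to 787. The median probe lay above the median negative-control spot on replicates 1 and 2 (757 against 708, 840 against 787) and below it on replicates 3 and 4 (751 against 776, 631 against 651). Of 43489 probes with a value on every array, 7885 (18.1%) exceeded the limit on all 4 and 25322 on none. By gene, each represented by its brightest probe, 3123 of 11895 (26.3%) were above the limit on all 4 channels, while 5804 (48.8%) had no probe above it on any. The limma test of a mean level above 0, one-sided with Benjamini-Hochberg adjustment over 43725 probes, called 7106 probes (16.3%), with or without a gene name. By gene, 2880 of 11895 (24.2%) were called by their brightest probe. A gene with several probes passes more easily by this rule, and 1592 of 3321 such genes were above the limit on all 4 channels. Lists differ in their number of such genes, from 0 of 27 HOX genes to 10 of 22 trophectoderm genes and 15 of 22 translation factors. The shares of lists given below are not adjusted for this. Of the called probes, 6931 were above the limit on all 4 channels and 175 were not. The gene lists below were drawn up with earlier results of these data known. Their shares beside that of all genes describe the chosen members and test nothing.

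**Figure D1:**
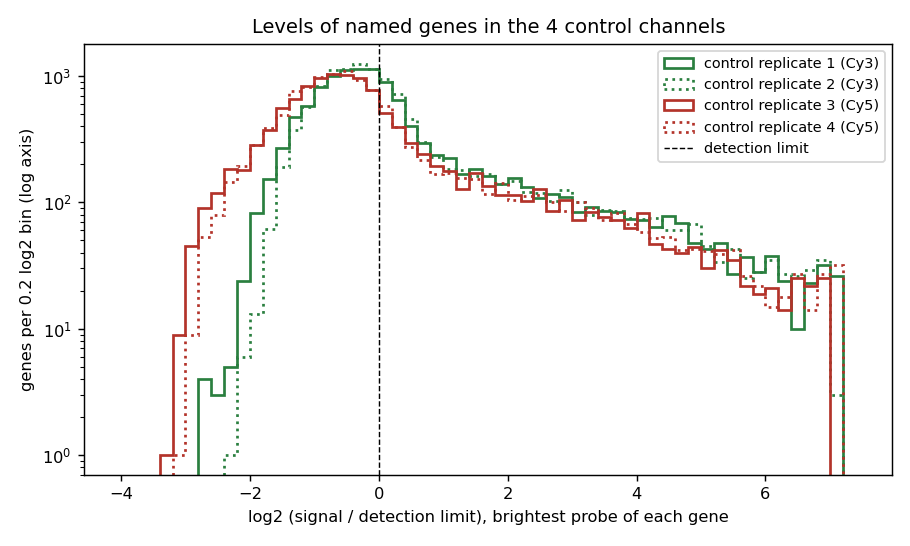
Number of named genes (log axis) in bins of the level, the log2 of signal over detection limit, for each control replicate; the dashed line is the limit. Most genes pile up just below the limit in all 4 channels, the Cy5 channels (replicates 3 and 4, red) lie further to the left, and a long tail reaches 6.90 to 7.14 at the top of the scanner's range.

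Among the detected genes the signal spanned the range of the scanner. Of all 11895 genes, 851 had a mean signal over 10 times the limit and 179 over 50 times. At the top, 79 genes lay within 2-fold of the highest level of the channel on every array. The scale ended at an intensity of 65535, which 2, 6, 13 and 15 probes had reached on replicates 1 to 4, so the order of the brightest genes carries little information and their levels are compressed. The order is that of spots, since probes differ in binding, and does not rank transcript numbers between genes. Of the 100 brightest probes, 62 had a gene name.

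The 30 brightest named genes encode parts of the ribosome, the respiratory chain, the cytoskeleton and other products of general use, with mean levels of 6.88 to 7.04. RPSA, a protein of the small ribosomal subunit, had levels of 7.11, 7.01, 6.90 and 7.12 on replicates 1 to 4, and its spot was saturated on replicates 2, 3 and 4. Ribosomal proteins made up a large part of the group, with RPL32, RPL13A, FAU, RPLP1, RPL10, RPL34, RPS10 and RPL12 beside it. The mitochondrially encoded ND1, a subunit of respiratory complex I, stood at 7.07, 7.00, 6.88 and 7.12. COX6A1 and COX5B of cytochrome c oxidase, ATP5G1 of the ATP synthase and SLC25A3, the mitochondrial phosphate carrier, belonged to the same group. The cytoskeleton was represented by ACTB (beta-actin), by the epithelial keratins KRT8 and KRT18, by DSTN (destrin), which cuts actin filaments, and by EZR (ezrin), which ties actin to the membrane of microvilli. The membrane-binding proteins ANXA2 and S100A11 and the galectin LGALS1 were also among the 30. Metabolic enzymes there were ASNS, which makes asparagine, LDHB, the lactate dehydrogenase B chain, and PNP, which splits purine nucleosides. The others were SERBP1, SNRPG of the spliceosome, NPC2, a carrier of cholesterol in lysosomes, the ubiquitin gene UBB and LOC100523874, which has no name in the annotation. Since these spots lay at or near the ceiling, their spread over the pools does not measure how stable the transcripts were. In limma, each of the named examples RPSA, ND1, ACTB, KRT8 and LDHB was above the limit with an adjusted p of 1.19e-15. They were chosen as among the brightest in these same channels, so this outcome was fixed by the choice and adds no support.

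The 4 markers used to check the identity of the pools were above the limit on all 4 channels for POU5F1, GATA3 and GATA6 and on 3 of 4 for CDX2. POU5F1, which encodes the pluripotency factor OCT4, had levels of 2.84, 2.27, 2.13 and 2.24 on replicates 1 to 4, a mean of 2.37 ± 0.32 (SD, n = 4) or 5.16 times the limit. Its other probe stood at 1.67, 2.05, 1.21 and 0.56, also above the limit throughout. GATA3, a transcription factor of trophectoderm, stood at 1.04, 1.54, 1.18 and 1.06, all close together. GATA6, which specifies hypoblast, stood at 2.87, 3.30, 2.70 and 2.62, with both Cy3 pools above both Cy5 pools. CDX2, a trophectoderm factor, stood at 0.96, 0.40, 0.53 and -0.36, and fell short of the limit on replicate 4. A second CDX2 probe stood at 0.19, 0.19, 0.12 and 0.16, above the limit in all pools by a small margin, and the remaining one had a mean of -0.11. In limma POU5F1 (adjusted p = 4.18e-09), GATA3 (2.75e-05) and GATA6 (2.2e-10) were called above the limit and no CDX2 probe was, the brightest at an adjusted p of 0.26. Thus 3 of the 4 markers, taken from the epiblast, trophectoderm and hypoblast lists, were above the limit in every pool. Which cells carried these transcripts cannot be told from pools of whole embryos.

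Of the trophectoderm list, 12 of 22 genes with a named probe were above the limit on all 4 channels, and limma called the same number, against 26.3% of all genes. KRT8 and KRT18, the keratin pair of simple epithelia, stood at 6.99 ± 0.12 and 6.99 ± 0.10 (SD, n = 4). GATA2, a transcription factor that works with GATA3 in this lineage, had levels of 5.88, 6.17, 5.68 and 5.67, or 57.7 times the limit. TFAP2C, which encodes AP-2 gamma, stood at 6.79 and 6.27 in the Cy3 pools and at 5.10 and 5.08 in the Cy5 pools, without overlap. TEAD4, the DNA-binding partner of the Hippo pathway's coactivators and in the mouse required for trophectoderm, stood at 5.50, 5.45, 5.36 and 4.89. One of its 4 probes lay at the limit, with a mean of 0.03. The endocytic adaptor DAB2 stood at 4.53 ± 0.35 and the glucose transporter SLC2A1 at 4.33 ± 0.33. WWTR1, the coactivator TAZ, was at 2.25 ± 0.40, KLF5 at 2.10 ± 0.37, the receptor FGFR2 at 1.38 ± 0.60 and the keratin KRT19 at 0.73 ± 0.55. ID2 and ELF5 were above the limit in some pools only. TEAD1, TFAP2A, YAP1, HAND1, GCM1, DLX3 and EOMES were above the limit in none. EOMES was the dimmest, at -1.33, -1.31, -1.93 and -2.19.

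Of the epiblast list, 5 of 18 genes were above the limit on all 4 channels (27.8%), close to the share among all genes. Besides POU5F1 these were DPPA5, ZFP42, LIN28A and UTF1. DPPA5, an RNA-binding protein of pluripotent cells, had levels of 3.56, 2.35, 3.70 and 2.84, highest in 1 pool of each dye. ZFP42, the zinc finger protein REX1, stood at 2.01, 1.69, 1.45 and 1.55. LIN28A, which blocks processing of let-7 microRNAs, stood at 1.40, 1.17, 1.78 and 1.00, and UTF1 at 0.93, 1.25, 0.36 and 0.24. The spread of UTF1 reached down to the limit in the Cy5 pools. SOX2, a partner of OCT4, stood at -0.07, 0.29, -0.29 and -0.57 and exceeded the limit only on replicate 2. The other 12 genes of the list, among them SALL4, KLF4, ESRRB, PRDM14 and DNMT3B, were above the limit in no pool. NANOG had no probe named here.

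Of the hypoblast list, 7 of 15 genes (46.7%) were above the limit on all 4 channels, against 26.3% of all genes. APOA1, an apolipoprotein made by yolk sac endoderm, stood at 3.31, 3.70, 1.86 and 2.78. FST, the activin antagonist follistatin, stood at 2.65, 3.60, 2.34 and 1.52. In both the Cy3 pools lay above the Cy5 pools. The basement membrane genes LAMB1 and COL4A1, encoding chains of laminin and collagen IV, had means of 2.08 ± 0.68 and 1.26 ± 0.34 (SD, n = 4). P4HA2, a collagen prolyl hydroxylase, was at 1.79 ± 0.82 and APOE at 1.38 ± 0.46 by 1 of its 3 probes. RBP4 and HNF4A exceeded the limit in some pools only. The other 6 genes of the list (40.0%) were above it in no pool, against 48.8% of all genes. FOXA2 was the dimmest at -2.02 ± 0.46. Over the 3 lineage lists, 24 of 55 genes (43.6%) were above the limit in all pools. Of these, 7 had a mean signal over 10 times the limit, all 7 of them from the trophectoderm list. That split depends on the list in which a gene was placed. KRT8 and KRT18 are also in the cytoskeleton list and SLC2A1 in that of the hypoxia response, so these genes are not particular to 1 lineage.

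**Figure D2:**
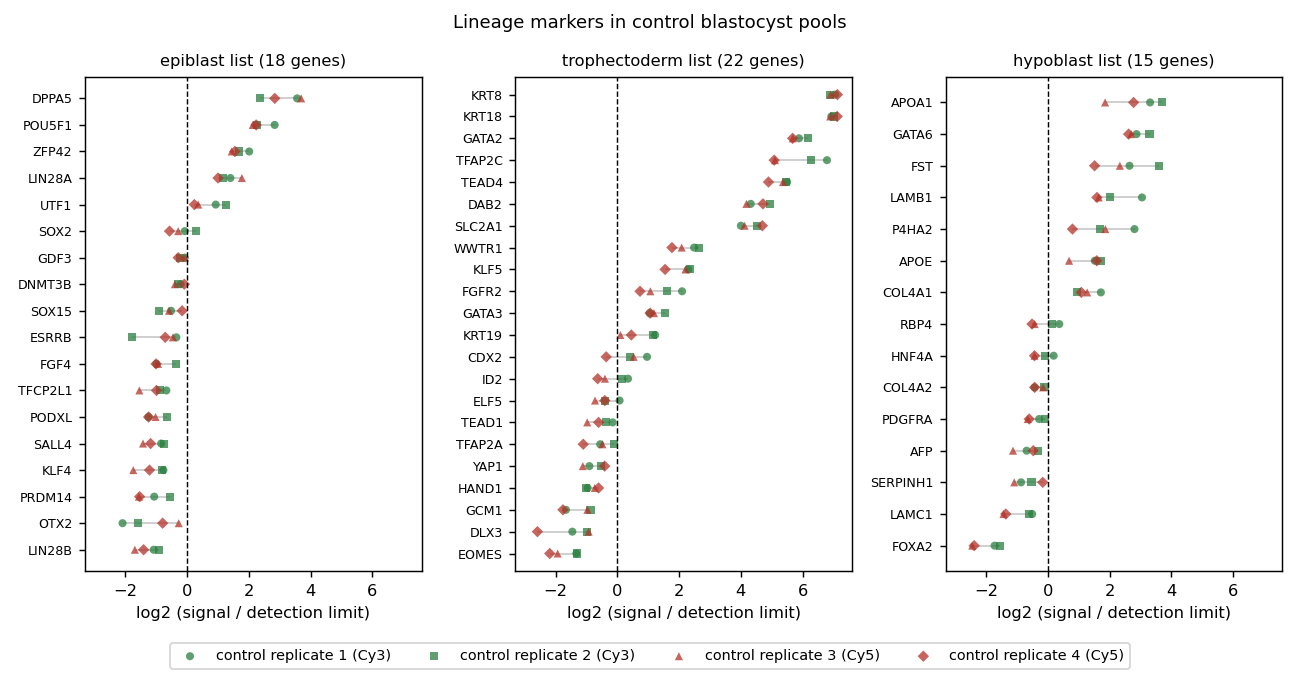
Level (log2 of signal over detection limit) of each gene of the epiblast, trophectoderm and hypoblast lists; points are the 4 control replicates, green for Cy3 and red for Cy5, and the dashed line is the limit. Genes placed in the trophectoderm list reach 7 and include all genes of these lists with a signal over 10 times the limit. DPPA5 at 3.11 and APOA1 at 2.91 lead the other lists.

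Genes of protein synthesis that had a named probe were mostly above the limit. Of 79 cytosolic ribosomal proteins listed 48 had such a probe, and 43 of these were above the limit on all 4 channels, against 26.3% of all genes, with a median level of 6.43 over the list against -0.34 over all genes. The exceptions were RPL17, above the limit on 3 channels, and RPS29, RPS15, RPL28 and RPL5, above it on none. RPS29 stood at -0.01, -0.81, -0.28 and -0.90. Whether these low values belong to the transcript or to the probe was not tested. Among 3321 genes with several probes, the brightest and the dimmest differed by a median of 1.28. Of the 1592 of these genes that were above the limit on all 4 channels by the brightest probe, 926 (58.2%) had another probe above it on none. Among the genes named in this text, they include HSPA4, AURKA, EGLN1, IRF3, FGFR2, SMAD2, WWTR1 and SDHAF2. PGK1, DAB2, STAT2, DIABLO, APOE, RPL13A, PNP, SERBP1, CCT7, PSMC6, KCNK1 and MTUS2 belong to them as well. Most genes named here as above the limit in no pool rest on a single probe. Of 34 translation factors listed 22 had a named probe, and all 22 were above the limit, led by EIF5A at 6.20, PABPC1, which binds poly(A) tails, at 6.06, and TPT1 at 6.05. Over the whole EIF symbol family of initiation factors, which overlaps that list, 28 of 33 were above the limit in all pools and 3 in none. Mitochondrial ribosomal proteins were so for 47 of 55, aminoacyl-tRNA synthetases for 11 of 12 and the HNRNP family of pre-mRNA binding proteins for 11 of 12.

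Oxidative phosphorylation was detected for 46 of 47 genes, against 26.3% of all genes, with a median level of 4.24. NDUFA5 was the exception at 0.40, 0.30, -0.66 and -0.75. Protein quality control was equally broad. Of the heat shock and folding list 27 of 28 genes were above the limit throughout, led by the cytosolic chaperones HSPA4 at 6.68 and HSPA8 at 6.66 and the mitochondrial HSPA9 at 6.61. CANX, the lectin chaperone calnexin, was the exception, at 2.01, 0.77, 0.22 and -0.06. Of the proteasome and ubiquitin list 23 of 25 were above the limit, and subunits of the V-ATPase, which acidifies lysosomes, were so for 15 of 17. Antioxidant genes were detected for 19 of 22, with the peroxiredoxins PRDX4, PRDX6 and PRDX2 at 6.26, 6.22 and 5.79, and with NQO1 and GCLC above the limit in no pool. The iron storage chains FTL and FTH1 stood at 6.79 and 6.75.

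Glucose metabolism was detected in part. Of 15 genes of glycolysis and glucose uptake 9 were above the limit on all 4 channels, against 26.3% of all genes. Among them were LDHB (6.94), GPI (6.62), which converts glucose 6-phosphate to fructose 6-phosphate, PGK1 (6.18) and GAPDH (5.41). The other GAPDH probe had a mean of -0.30. HK2, PFKP and PDK1, encoding a hexokinase, a phosphofructokinase and the kinase that shuts pyruvate dehydrogenase, were above the limit in none. HK2 stood at -0.49, -0.45, -0.46 and -1.18, and PDK1 at -0.61, -0.68, -0.97 and -1.24. Of the cholesterol and lipid list 13 of 18 were above the limit in all pools. SCD, which desaturates fatty acids, led with 6.84, followed by ACLY, which makes cytosolic acetyl-CoA, at 6.01 and PLIN2, a coat protein of lipid droplets, at 5.86. CYP51, a demethylase of sterol synthesis, was the single cytochrome P450 gene of 20 above the limit throughout, at 4.64, 5.45, 4.98 and 5.28. CPT2 and the fatty acid transporter CD36 were above it in no pool.

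Cavity formation relies on tight junctions and water channels. In the list of cavity formation and junctions 12 of 22 genes were above the limit in all pools, against 26.3% of all genes. Limma called 11 genes of the list, while it called 24.2% of all genes. AQP3, an aquaglyceroporin, had levels of 6.27, 6.53, 6.23 and 5.33, lowest on replicate 4. CLDN7 stood at 5.06, 6.27, 5.23 and 4.60, and OCLN, which encodes occludin, at 4.97, 4.35, 4.42 and 3.91. Of 15 claudins, CLDN7, CLDN4 (2.50 ± 0.20) and CLDN6 (2.05 ± 0.37) were above the limit in every pool and 11 in none. DSP and JUP, which encode desmoplakin and plakoglobin of desmosomes, and ATP1B1, a beta chain of the sodium pump, were above the limit in no pool, at means of -0.41, -1.05 and -1.54. The cytoskeleton list was above it for 18 of 21 genes. Of the 21 keratins, KRT8, KRT18 and KRT19 were above the limit in all pools and 12 in none.

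Genes of proliferation and of the chromatin were mixed. In the cell cycle and replication list 11 of 22 genes were above the limit in all pools, against 26.3% of all genes. In both Cy3 pools 17 were, against 4425 of all 11895 genes. CKS2, a partner of cyclin-dependent kinases, stood at 4.94, MAD2L1 of the spindle checkpoint at 4.26 and the mitotic kinase AURKA at 3.75. Of the 3 AURKA probes, 2 were above the limit in no pool. CDK4 and CCND1, the kinase and a cyclin of early G1 phase, were above the limit in none. Of the chromatin list 12 of 25 were above it throughout, led by the remodeller CHD4 (3.86) and the histone methyltransferase SETDB1 (3.70). TET1, which oxidises methylcytosine, stood at 2.63, 2.81, 1.94 and 1.53. DNMT1, the maintenance methyltransferase, stood at 1.64, 1.05, 0.64 and -0.03 by its brightest probe, and 2 of its 4 probes were above the limit in no pool. The remaining DNMT1 probe stood at 1.02, 0.59, 0.0063 and 0.0040, above the limit in every pool but only just in the Cy5 pools. Of the apoptosis list 10 of 16 were above the limit, with AIFM1 at 4.45, CYCS, which encodes cytochrome c, at 4.11 and DIABLO at 3.48. APAF1, CASP8 and CASP9, of the initiation of the caspase cascade, were above it in none.

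Of 11 imprinted genes, expressed from 1 parental allele in at least some tissues, 3 were above the limit in all pools (27.3%), near the 26.3% of all genes. GNAS, the stimulatory G protein alpha chain, stood at 6.05, 6.37, 6.20 and 6.48, although 4 of its 8 probes were above the limit in no pool. GRB10, an adaptor that restrains insulin receptor signalling, stood at 2.63, 3.32, 2.94 and 3.73. DIRAS3 varied more, at 2.06, 0.27, 1.25 and 0.37. MEST and PLAGL1 were above the limit in no pool.

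**Figure D3:**
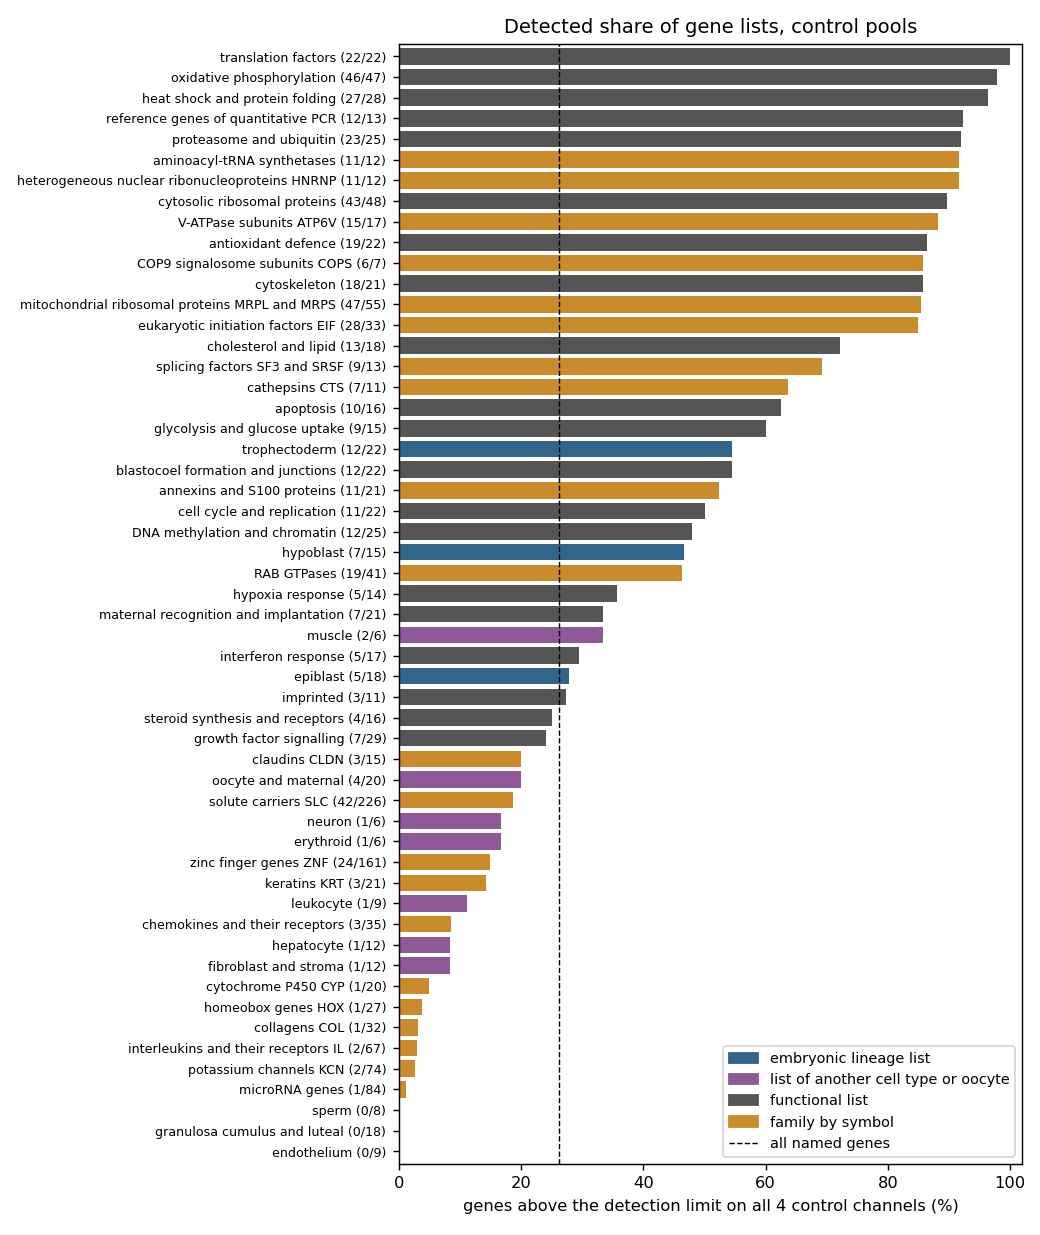
Percentage of the genes of each list or symbol family (members above the limit over members with a named probe in parentheses) that exceeded the detection limit on all 4 control channels; the dashed line is the share of all named genes, 26.3%. Translation, respiration and protein folding fill the top, while sperm, granulosa and luteal, and endothelial lists have 0 members above the limit and stand at the bottom.

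Genes linked to the dialogue with the mother included a few bright ones. Of 21 genes of maternal recognition and implantation 7 (33.3%) were above the limit in all pools, against 26.3% of all genes. In both Cy3 pools 11 were, against 4425 of all 11895 genes. LGALS1 and LGALS3, which encode galectins, stood at 6.92 ± 0.12 and 5.76 ± 0.53 (SD, n = 4). PTGES, the prostaglandin E synthase, had levels of 5.59, 5.45, 5.53 and 6.47. The cytokine gene IL6 stood at 5.39, 6.06, 5.96 and 5.11, 49.5 times the limit by its single probe. IL1B, the gene of interleukin 1 beta, whose relative IL1B2 the pig conceptus secretes at elongation, stood at 2.09, 0.96, 3.12 and -0.24, from well above the limit to below it. Whether its probe also reads IL1B2 was not tested. LIF and SPP1, which encodes osteopontin, were above the limit in no pool. Of 67 interleukins and interleukin receptors, IL6 and IL12A (5.33, 4.82, 4.45 and 4.87) were above the limit in every pool, and 53 were above it in none. Over all genes these shares were 26.3% and 48.8%.

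Of the list of steroid synthesis and receptors 4 of 16 genes (25.0%) were above the limit in all pools, near the 26.3% of all genes. PGRMC2 and PGRMC1, heme-binding proteins first described as progesterone-binding, stood at 6.19, 5.72, 5.99 and 5.33 and at 5.27, 6.18, 5.21 and 5.79. STARD3, a cholesterol carrier of late endosomes, stood at 3.43 ± 0.07 (SD, n = 4) by the brightest of 3 probes, and HSD17B12 at 1.02 ± 0.56. The nuclear receptors of estradiol and progesterone (ESR1, ESR2, PGR) and the steroidogenic enzymes HSD3B1 and CYP17A1 were above it in none.

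Growth factor signalling was above the limit for 7 of 29 genes (24.1%), near the 26.3% of all genes, with GSK3B, a kinase of the WNT pathway, at 5.55, 5.33, 5.31 and 5.34, SMAD2 at 2.49 and FGFR4 at 2.05. FGF4, a ligand made by epiblast cells in the mouse, WNT3 and TGFB1 were above it in none. Of the interferon response list 5 of 17 (29.4%) were above the limit in all pools, again near that share, led by STAT2 (2.87), IRF3 (1.69) and IRF7 (1.59), while the sensor DDX58 and the interferon-induced IFIT1 were above it in none. Hypoxia response genes were above it for 5 of 14 (35.7%), with SLC2A1, EGLN1 (3.53), an oxygen-sensing prolyl hydroxylase, and P4HA1 (1.70) in front. Among genes used as references in quantitative PCR 12 of 13 were above the limit throughout. B2M, at 0.54, -0.12, -0.17 and 0.15, was the exception and GUSB, at 0.63 ± 0.29, the next dimmest.

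Transcripts of the oocyte were dim where they exceeded the limit. Of 20 genes 4 were above it in all pools, 20% against 26.3% of all genes, and limma called 2 of them, while it called 24.2% of all genes. ZP2, of the zona pellucida, had levels of 1.55, 1.57, 1.46 and 0.15, lowest on replicate 4 (adjusted p = 0.00032 in limma). UCHL1, a deubiquitinase, stood at 0.66, 0.57, 0.17 and 1.05 (limma, adjusted p = 0.021). MOS, the meiotic arrest kinase, and the nuclear import factor KPNA7 stood at 0.47 ± 0.35 and 0.21 ± 0.10 and were not called. BMP15 and DDX4 were the dimmest, at -1.68 and -1.67, and with ZAR1, NLRP5, OOEP, H1FOO, WEE2 and CPEB1 were above the limit in no pool. The count of 4 became 0 at a limit of 3 SD, 7 without replicate 3 and 10 in the Cy3 pools alone. Over all 11895 genes the counts were 3123, 2762, 3438 and 4425 in the same order.

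Markers of granulosa, cumulus and luteal cells were above the limit in all pools for 0 of 18 genes, against 26.3% of all genes. These somatic cells surround the oocyte or follow it in the ovary. PTGS2, the inducible prostaglandin synthase, stood at 1.09, 1.06, 0.14 and -0.42, and SCARB1, a receptor for lipoproteins, at 0.51, 1.81, -0.48 and -0.07. STAR, which delivers cholesterol for steroid synthesis, stood at -0.05, 0.05, 0.32 and 0.26. The LH receptor gene LHCGR had a mean of -0.40, and CYP17A1, HSD3B1, FSHR, PTX3, TNFAIP6 and GREM1 were above the limit in no pool. The Cy3 pools alone had 4 of the 18 above it, against 4425 of all 11895 genes. A single gene of the list was above it without replicate 1, without 3 and without 4.

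The 9 lists of other cell types, the oocyte left aside, were above the limit in all pools for 7 of 86 genes (8.14%), against 26.3% of all genes, and 49 were above it in no pool. The 7 were AIF1, TAGLN, ACTA1, STMN2, APOC3, EPOR and TNNC1. AIF1, known as a marker of macrophages, had levels of 3.88, 3.89, 2.95 and 3.02, or 10.8 times the limit by a single probe. The leukocyte genes PTPRC, CSF1R, CD14, ITGAM, CD3D, CD3E and LYZ were above the limit in no pool, with means of -0.38 to -1.79. TAGLN, a smooth muscle and stromal actin-binding protein, stood at 2.87, 2.25, 2.79 and 3.02, while its other probe had a mean of -1.19. COL1A2, PDGFRB, THY1 and LUM of the same list were above the limit in none, and VIM, the gene of vimentin, stood at 0.63, 0.29, -0.41 and 1.06. ACTA1, skeletal muscle actin, stood at 3.40, 2.27, 2.44 and 2.73. Its coding sequence is close to that of ACTB, which was near the top of the scale, and shared hybridisation was not tested. STMN2 stood at 2.89, 2.51, 1.57 and 0.95, and the neurofilament genes NEFL, NEFM and NEFH were above the limit in no pool. APOC3, listed for liver, stood at 1.64 ± 0.34, and ALB, TF, SERPINA1 and FGG were above it in none. The endothelial and sperm lists had 0 of 9 and 0 of 8 genes above the limit in all pools, or 1 each without replicate 4. The stromal list had 2 without replicate 3 and the liver list 2 without replicate 4, in place of 1 each.

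**Figure D4:**
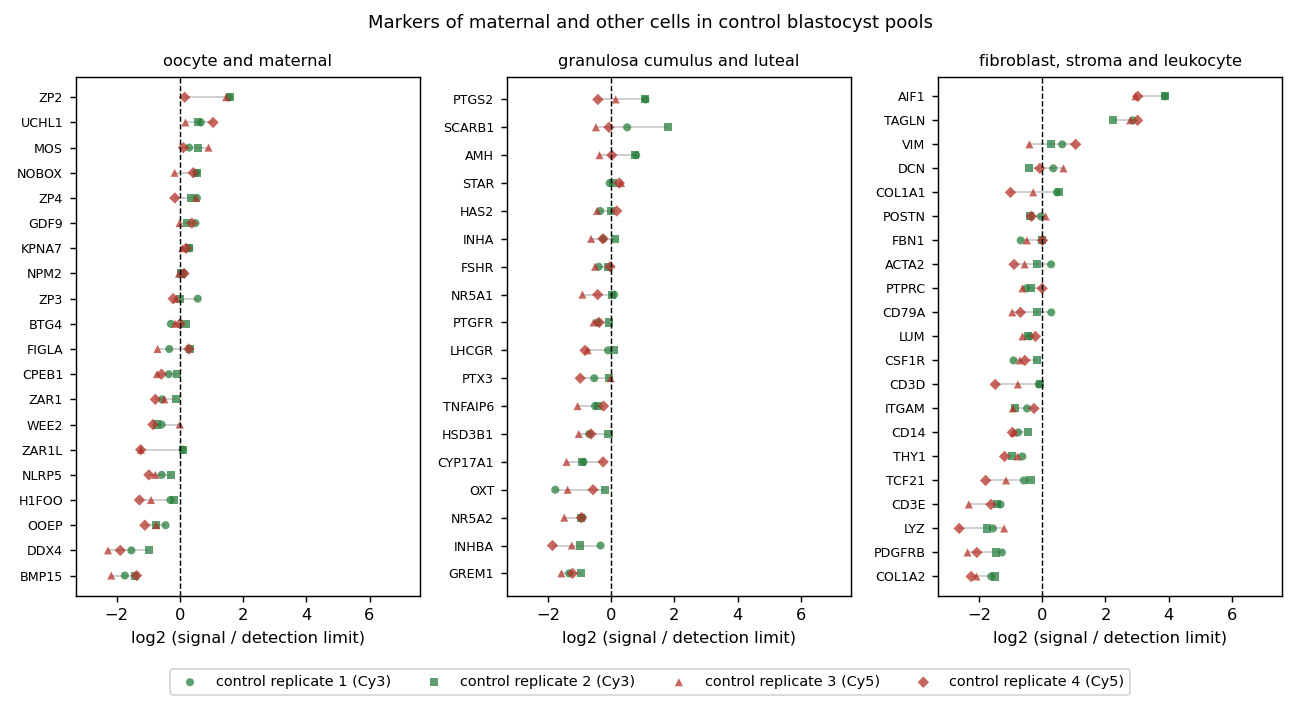
Level (log2 of signal over detection limit) of the genes listed for oocyte, for granulosa, cumulus and luteal cells, and for stroma and leukocytes; points are the 4 control replicates, green for Cy3 and red for Cy5, and the dashed line is the limit. Apart from AIF1 at 3.44 and TAGLN at 2.73, the genes cluster around or below the limit, and ZP2 at 1.18 is the brightest of the oocyte.

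Several symbol families, chosen after the values were seen, had a smaller share of members above the limit than the 26.3% of all genes. Of 27 HOX genes 1 was, HOXB7, at 0.70, 0.94, 0.80 and 1.25, and 24 were above it in no pool. Of 74 potassium channel genes 2 were, KCNK1 (0.55) and KCNA1 (0.30), and of 32 collagens 1, COL4A1. Chemokines and their receptors were above it for 3 of 35. CXCL16 stood at 3.08 ± 0.16 (SD, n = 4), and the receptor CXCR4 at 2.09, 1.81, 0.18 and 0.71, with the Cy3 pools above the Cy5 pools. CXCL14 was above the limit on replicates 1, 2 and 4, at 1.66, 1.24 and 0.54, and not on replicate 3, at -0.38. Of 84 microRNA genes 1 was above it throughout, MIR28 at 0.30. Zinc finger genes were above the limit for 24 of 161 (14.9%) and solute carriers for 42 of 226 (18.6%). Of 41 RAB genes, the GTPases of vesicle traffic, 19 (46.3%) were above it in all pools, and of 11 cathepsins, proteases of the lysosome, 7 (63.6%).

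The 4 pools were similar in order but differed in level with the dye. Across probes, the log2 levels of 2 pools correlated with Pearson's r of 0.957 for the Cy3 pair, 0.934 for the Cy5 pair and 0.921 to 0.939 between dyes. These values are a description over probes, which share the array design and the probe's own brightness. For genes above the limit on all 4 channels the SD over the pools had a median of 0.37, with 0.17 and 0.69 at the 10th and 90th percentiles. Of these 3123 genes 2442 had a lower mean in the Cy5 pools, with a median difference, Cy5 minus Cy3, of -0.32. In limma 0 of 43725 probes (0.0%) differed between the Cy5 and the Cy3 pools after Benjamini-Hochberg adjustment, and 11215 (25.6%) did at an unadjusted p under 0.05, or 7714 after quantile normalization. With 1 pool of a dye left out, assuming that the lone pool varies like the pair, the adjusted count was 4, 124, 2335 and 2532 without replicates 1 to 4, and mean in place of median pixel intensities gave 12785.

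Presence followed the dye as well. Above the limit on both Cy3 channels and neither Cy5 channel were 628 genes, and 24 showed the opposite pattern. The other pairs of replicates shared 42 to 140 genes in this way. Of the first kind MDM2, the ubiquitin ligase of p53, stood at 2.01, 1.21, -0.36 and -0.26, and GPX6, a glutathione peroxidase, at 2.36, 0.90, -0.09 and -0.88. Of the second kind LGR4, a receptor for R-spondins, stood at -0.23, -0.26, 0.64 and 1.19. With the limit set per channel from its own negative-control spots, whether these genes differ between pools or between dyes cannot be told apart.

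**Figure D5:**
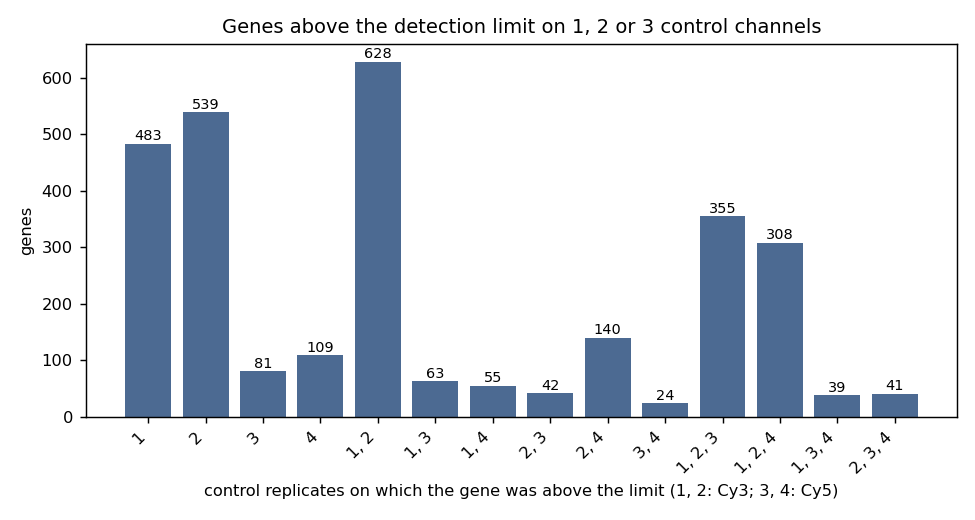
Number of named genes (brightest probe, with a value on every array) above the detection limit on 1, 2 or 3 of the 4 control channels, by the replicates on which they were above it; replicates 1 and 2 carry Cy3, 3 and 4 carry Cy5. The pair of Cy3 channels holds 628 genes and the pair of Cy5 channels 24.

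The genes that varied most included some that followed the dye and some that did not. Among the genes above the limit on all 4 channels, RAB21, a GTPase of early endosomes, had the largest SD, at 3.30 and 2.86 in the Cy3 pools and 0.68 and 0.42 in the Cy5 pools. SDHAF2, an assembly factor of respiratory complex II, stood at 2.17, 3.46, 3.38 and 0.36, with replicate 4 apart from the others. RPS2, of the small ribosomal subunit, stood at 1.98, 1.76, 1.44 and 4.35, and here replicate 4 was the highest. CHCHD1, GNPDA1, CCT7, RSRC2 and PSMC6 also had their lowest level on replicate 4, from 0.28 for PSMC6 to 1.46 for CCT7, and their highest on replicate 1. In CHCHD1, CCT7, RSRC2 and PSMC6, as in RAB21, both Cy3 pools lay above both Cy5 pools. A lower Cy5 mean was common, in 2442 of the 3123 genes above the limit on all 4 channels. The share of all genes with both Cy3 pools above both Cy5 pools was not counted. The same order in GATA6, TFAP2C, APOA1, FST and CXCR4 is therefore not shown to be particular to them. The smallest SD belonged to ABCF1, TCF7L1, MTUS2 and METTL3, the last being the RNA methyltransferase of adenosine, at 2.46, 2.44, 2.50 and 2.51. MTUS2 stood at 4.83, 4.78, 4.78 and 4.85 by the brightest of 5 probes. Its other probes had means of -0.56 to 0.41, and the other ABCF1 probe had a mean of -1.50. The small SDs thus belong to single probes. In limma ABCF1 (adjusted p = 0.15) and TCF7L1 (0.52) were not called above the limit.

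In 38 genes the level passed from below the limit in 1 pool to over 1.5 in another. HBE1, the embryonic epsilon globin, stood at -0.23, 2.37, 2.02 and -0.54, above the limit in 1 pool of each dye. In the same erythroid list HBZ, the zeta globin, had a mean of -0.25, and ALAS2, KLF1 and SLC4A1 were above the limit in no pool. H3F3A, a gene of histone H3.3, stood at 4.25, 3.11, 2.99 and -0.11. NUP62, of the nuclear pore, stood at -0.30, 2.65, 0.31 and 2.49, high on replicates 2 and 4. FLRT3 stood at 2.42, -0.14, -1.97 and -0.74, above the limit in the first pool only, and the small heat shock gene CRYAB stood at 2.33, -0.41, -0.12 and 0.68. CLU, which encodes the secreted chaperone clusterin, stood at 1.80, -0.25, -0.13 and 1.22, high on replicates 1 and 4. These levels are those of the brightest probe. The other probe of HBE1, of NUP62 and of FLRT3 was above the limit in no pool, at means of -1.44, -0.43 and -1.01. The other H3F3A probes had means of 0.22 and -1.05. With 1 spot in 1 pool behind each value, a difference between embryos and an error of the spot cannot be told apart.

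At the limit itself the genes with a mean level just above 0 were KDM5A, LUC7L, RB1, SLC27A3 and RALY, and those just below were CGN, ARID4A, TOP1, PPP6R1 and ADAM17. KDM5A stood at 0.14, -0.06, 0.01 and -0.09, and CGN, which encodes cingulin of tight junctions, at 0.10, 0.39, -0.15 and -0.34. Genes in this range were above the limit in some pools and not in others.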

How the data were processed

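The deposited scanner tables give, per spot and dye, raw median pixel intensity, local background intensity and a mark on spots left out; the sources used here do not name the scanner or its software. Per the labels' protocols, RNA was amplified and labelled chemically. The submitters' processing notes name limma. The authors' table of log2 values was not used here, because it holds ratios between the channels. Control intensities were corrected with normexp (offset 50) in limma 3.58.1 (R 4.3.3) and divided by the limit of the same channel, taken as fixed. No normalization between arrays was applied. Levels were fitted with lmFit and eBayes, with a threshold of 0.05 on adjusted p, and the fit was tested on simulated data. Saturated spots were kept. Array number limits the precision.

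Of 18121 probes with 1 symbol, 17772 carried a symbol current in RefSeq (assembly Sscrofa11.1, names only), 241 matched by synonym and 104 by accession, and 4 kept the platform's symbol; the other probes are unnamed here. Members and the 34 gene lists were chosen with earlier results of these data known. Genes were named by rule: the 30 brightest; per list the 3 brightest and the dimmest; all genes of the lineage and other cell lists; the most and least variable; the strongest dye patterns; and the 5 on each side of the limit. The 21 symbol families and 33 genes were added after values were seen. Alternatives changed the background, the intensity, the limit, the scaling, the probe rule and the pools used.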

Additional observations from a re-analysis of the deposited data

Results flagged for a closer look

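Of the 331 named genes tested, 10 had 1 pool far from the other 3 by Dixon's 95% criterion, which chance meets in about 1 in 20 groups. In 6 of them the pool was replicate 4. ZP2 of the zona pellucida stood at 0.15 there against 1.46 to 1.57 in the others, KLF5 at 1.54 against 2.21 to 2.34, and HK2 at -1.18 against -0.49 to -0.45. PTGES stood higher there, at 6.47 against 5.45 to 5.59, as did CLDN6 at 2.61 against 1.84 to 1.91 and ESR2 at -0.32 against -0.98 to -0.94, still below the detection limit. GSK3B stood at 5.55 on replicate 1 against 5.31 to 5.34. On replicate 2, FGF4 stood at -0.35 and PFKP at -0.31, and on replicate 3 NR5A2 stood at -1.48, all below the limit.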

How the results depend on the processing

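Counts above the limit moved with the pools and the limit used, and so did the comparison of dyes. Probes above the limit on all channels numbered 6716 to 9183 over the changes of background, intensity, limit and scaling, 8038 to 9037 with 1 pool left out, 8281 in the Cy5 pools and 12254 in the Cy3 pools, and limma called 6038 to 8285. Genes above it numbered 2531 with the mean over all probes, 2762 at a limit of 3 SD, 3497 with mean pixel intensity and 4425 in the Cy3 pools. The count of probes differing between dyes in limma, 0 in the fit reported, was 2 with plain subtraction, 12785 with mean pixel intensity (550 higher and 12235 lower in Cy5), and 4 to 2532 with 1 pool left out; the cause was not tested. The level turned negative with the mean over all probes for PSMC6 (-0.13), DNMT1 (-0.097), CXCL14 (-0.26) and KCNK1 (-0.00798), which averages in their dimmer probes. Without background correction the level moved by over 1 SD for 177 of 331 named genes, and after quantile normalization for 0. Signal over background limits the dim genes: a level below 0 is not a measure of absence. No paired analysis was possible because only 1 group was described.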
